A study of Mus musculus with 12 samples.

Results

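The 4 genes Slc5a2, Slc9a7, Slc9a8 and Slc9a9 were read by symbol from deposited tables of 53801 genes in mouse bone marrow. Slc5a2 encodes SGLT2, the sodium-glucose cotransporter that is the drug target of empagliflozin, which the label EMPA is taken to mean. The other 3 genes encode sodium-proton exchangers of intracellular membranes. Slc9a7 was lower in all 6 infarct libraries than in all 6 sham libraries on the scale of library-size-adjusted counts, with or without EMPA. Slc9a8 and Slc9a9 passed the test in no comparison, and Slc5a2 had only 145 counts over 12 libraries.

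Each of 4 groups of C57BL/6N mice had 3 libraries of total RNA from whole marrow. Sham is the control operation without EMPA, and Sham-E is the same operation with EMPA. MI is myocardial infarction, made by tying off the left anterior descending coronary artery, without EMPA, and MI-E is infarction with EMPA. The sources used here do not give the dose and schedule of EMPA, the time from operation to sampling or the age of the mice. No label ties a library to a mouse of its own, so p-values measure only how far these samples spread, which may be technical.

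SGLT2 takes up glucose from the kidney filtrate together with sodium, and it needs the small membrane protein MAP17, encoded by Pdzk1ip1, for full activity. Sodium-proton exchangers swap sodium or potassium ions for protons. The exchangers NHE7, NHE8 and NHE9, encoded by Slc9a7, Slc9a8 and Slc9a9, sit mainly in the Golgi apparatus and in endosomes, where they let protons leak out against the vacuolar proton pump.

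Libraries held 21175087 to 24606783 counts, and 15119 genes passed the filter on low counts. All 9 neutrophil markers and all 9 erythroid markers, which define most marrow cells, had counts in every library. The 4 Y-linked genes read were counted in every library, the lowest at 294 counts, while Xist had at most 11 counts. Since Slc9a7 lies on the X chromosome, these values show no mix of male and female libraries beside its results. Sham-E 1 stood apart from the other sham libraries: 11 early B-lineage markers summed to 298.1 CPM (counts scaled to a common library size) there and to at least 903.6 CPM in the other 5. Fitted comparisons of the members that use the Sham-E group are given with and without it. The mean insert length recovered from the deposited tables was 263.1 to 265.2 bases in MI and 271.5 to 280.5 in Sham-E. It was 280.5 to 283.0 bases in MI-E and 284.4 to 287.0 in Sham. Only Sham-E and MI-E met, at 280.5 bases. In every other pair of groups the group and the insert length cannot be told apart.

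Per length, Slc9a8 was the highest member in every library. Slc5a2 was the lowest in all but MI-E 4, where it had 2.12 TPM and Slc9a7 had 1.82 TPM. In Sham the mean TPM (transcript abundance, which adjusts counts for transcript length) was 23.0 ± 2.94 (SD, n = 3) for Slc9a8, 6.47 ± 0.317 for Slc9a7, 6.42 ± 1.28 for Slc9a9 and 0.563 ± 0.293 for Slc5a2. Slc9a7 and Slc9a9 did not differ beyond their spread there. In MI the mean TPM was 2.50 ± 0.706 for Slc9a7 and 4.85 ± 1.57 for Slc9a9, and their libraries overlapped.

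**Figure D1:**
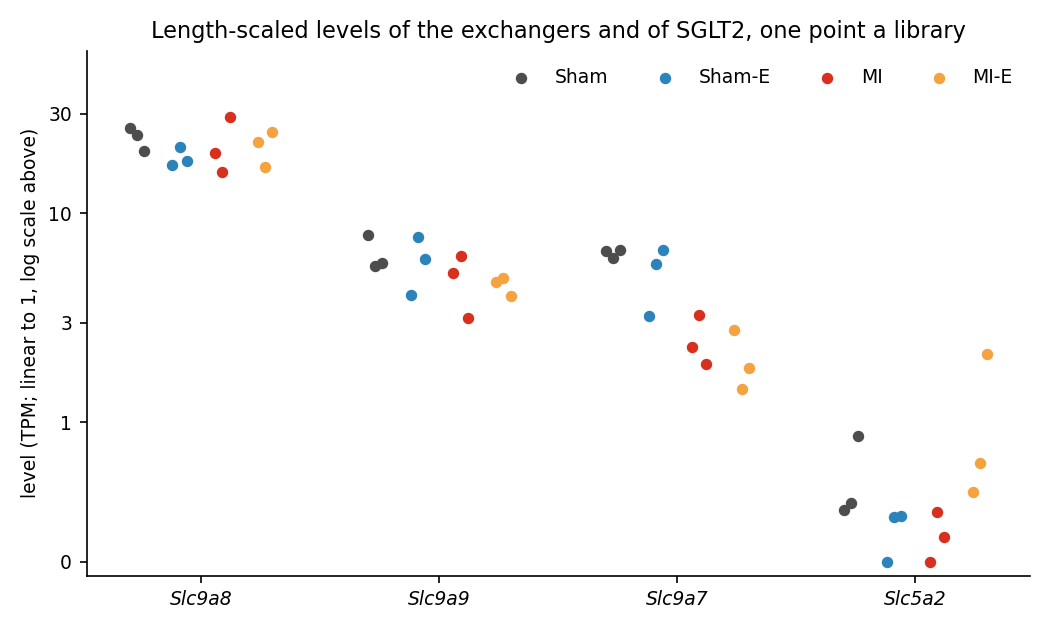
Each point is 1 library and gives its level in TPM, on an axis that is linear up to 1 and logarithmic above, for 4 genes and 4 groups. Slc9a8 lies between 15.72 and 28.76 TPM in every library, and Slc5a2 exceeds 1 TPM in 1 MI-E library. Slc9a7 has lower means in MI and MI-E, though Sham-E 1 (3.23 TPM) lies just under MI 2 (3.28 TPM).

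Slc9a7 (ENSMUSG00000037341) lies on the minus strand at chrX:20105754-20291807 of mm10, and GENCODE M21 gives it 5 transcripts. No exon of another gene overlaps its exons. The 250 bases before its RefSeq start are shown with those of Slc9a9, the member nearest to it in level in Sham to show how unlike the start regions of 2 members with similar levels are in base composition. The coordinates and sequences are RefSeq's on GRCm38.p6 (mm10), and capitals mark GGGCGG, the core of a GC box, or the same core read on the other strand, CCGCCC. Slc9a7 is at chrX:20291828-20292077 on the minus strand and Slc9a9 at chr9:94669642-94669891 on the plus strand.
Slc9a7: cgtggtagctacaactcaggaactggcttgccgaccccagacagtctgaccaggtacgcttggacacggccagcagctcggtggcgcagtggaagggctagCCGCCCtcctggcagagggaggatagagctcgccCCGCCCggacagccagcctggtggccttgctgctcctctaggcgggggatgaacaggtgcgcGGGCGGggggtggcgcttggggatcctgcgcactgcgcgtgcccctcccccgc
Slc9a9: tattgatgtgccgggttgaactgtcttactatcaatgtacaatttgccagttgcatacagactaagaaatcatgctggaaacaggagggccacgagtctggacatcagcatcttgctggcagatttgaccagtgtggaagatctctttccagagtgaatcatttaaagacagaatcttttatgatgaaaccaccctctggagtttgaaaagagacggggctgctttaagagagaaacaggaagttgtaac

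The Slc9a7 window is 69.6% G or C, with 19 CpG dinucleotides and 3 GC boxes, and the Slc9a9 window is 42.8% G or C, with 3 CpG and no GC box. The Slc9a8 window, chr2:167421460-167421709 on the plus strand, lies between them at 62.0%, with 18 CpG and 2 GC boxes. Over 32851 promoter windows of the same length, the median was 52.4% G or C and 6 CpG, and 32.7% held a GC box on either strand. The other motifs were also searched on both strands, and CCGGAAG and GAGGAAGT have the letters GGAAG in common. The E-box CACGTG is held by 6.02% of all windows, the TATA box core TATAAA by 12.4% and the ETS-type motif GAGGAAGT by 2.44%, and none of these was in the 3 windows. The ETS-type motif CCGGAAG, held by 6.91%, occurred once, in Slc9a8. Windows of 3 of the 4 genes were found by symbol, all but Slc5a2. A match is a description of the letters and not evidence of binding.

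The first question was which members differed between MI and Sham, and only Slc9a7 passed the test. The group and the insert length cannot be told apart in this pair. Sham libraries held 8.10, 8.33 and 8.81 CPM of Slc9a7 (190, 203 and 222 counts). MI libraries held 2.69, 3.92 and 2.91 CPM (64, 79 and 59 counts). The groups did not overlap, and the highest MI library had less than any Sham library by a wide margin. With means of 8.41 ± 0.362 and 3.17 ± 0.656 CPM (SD, n = 3 each), Slc9a7 fell by 1.41 ± 0.25 (SE) on the log2 scale, a 2.65-fold difference (95% interval -1.95 to -0.87, adjusted p = 0.037, edgeR quasi-likelihood test). It was 1 of 4 members called, where 0.417% of all genes tested were called and 0.192% were called lower. Slc9a7 and Slc5a2 were the 2 members whose groups did not overlap, which held for 27.3% of all genes. For Slc5a2 this is no support for a change, since it passed the filter only through libraries of MI-E and Sham.

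The call for Slc9a7 sat close to the threshold, while the size of the difference varied little. Leaving out 1 library at a time moved the log2 fold change between -1.59 and -1.30 and the edgeR adjusted p between 0.0042 and 0.16. The adjusted p was 0.12, 0.15 and 0.16 without Sham 1, Sham 3 and Sham 4, 0.053 and 0.090 without MI 1 and MI 3, 0.060 without Sham-E 2, and 0.062, 0.056 and 0.067 without MI-E 2, MI-E 3 and MI-E 4. It stayed under 0.05 without MI 2, Sham-E 3 or Sham-E 1, and was 0.0042 without Sham-E 1. DESeq2 on the same counts gave -1.41 with an adjusted p of 3e-05.

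**Figure D2:**
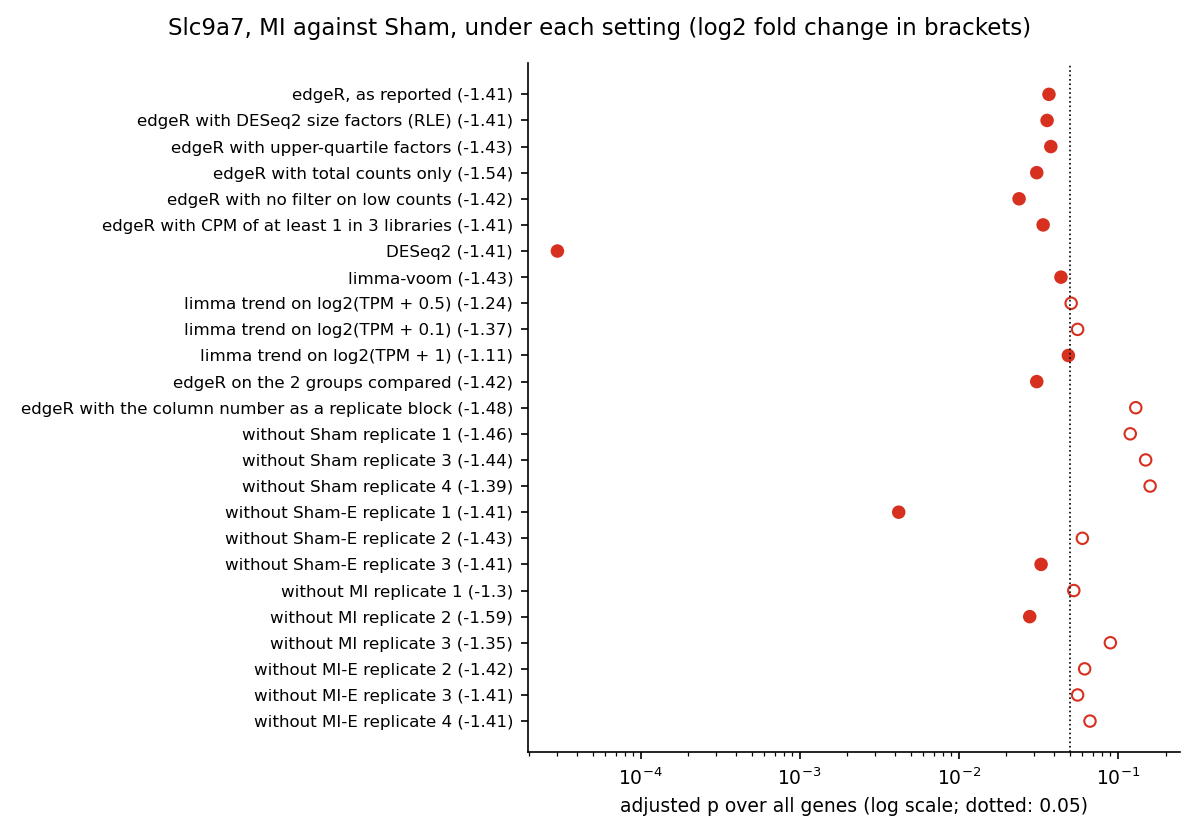
Each point is the adjusted p of Slc9a7 in MI against Sham under 1 setting, on a log axis, with the log2 fold change in brackets and filled points under 0.05. The fold change stays between -1.59 and -1.11 over all settings, while the adjusted p lies on both sides of 0.05.

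Under EMPA Slc9a7 was also lower in every infarct library than in every sham library, by a smaller fitted difference. Sham-E libraries held 5.15, 7.30 and 9.11 CPM, and MI-E libraries held 3.43, 2.72 and 3.00 CPM. The groups did not overlap, as for 23.9% of all genes, and the lowest Sham-E value came from Sham-E 1. The edgeR log2 fold change of MI-E against Sham-E was -1.23 ± 0.25 (SE; adjusted p = 0.24), and without Sham-E 1 it was -1.43 (adjusted p = 0.020). In this comparison edgeR called 0 genes of 15119 (0.0%), while 2031 (13.4%) had an unadjusted p under 0.05 and DESeq2 called 168 (1.18% of those it gave an adjusted p), Slc9a7 among them (adjusted p = 0.0042). The insert length was 281.8 ± 1.25 bases in MI-E and 277.3 ± 5.06 in Sham-E (exact two-sided permutation p = 0.2, where 0.1 is the smallest possible). The groups met only at 280.5 bases, and the part of insert length in this result was not tested.

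The remaining pairs of groups place Slc9a7 at 2 levels. MI-E against Sham gave -1.46 ± 0.25 (adjusted p = 0.18), and MI against Sham-E gave -1.18 ± 0.25 (adjusted p = 0.16), neither past the threshold in edgeR, which called 0.0% of genes in the first (0 genes, with 2070 at an unadjusted p under 0.05 and 173, or 1.19%, called by DESeq2) and 0.00661% in the second. Neither pair overlapped, as for 36.1% and 12.2% of all genes. Without Sham-E 1 the adjusted p was 0.0086 and 0.013. These comparisons share groups with the ones above and are not separate support. In the order Sham, Sham-E, MI, MI-E, only the step from Sham-E to MI had no overlap in CPM. In TPM Sham-E 1 (3.23) lay just under MI 2 (3.28), so the gap closed there.

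A comparison averaged over both treatments, added after the data were seen, set MI and MI-E against Sham and Sham-E. Slc9a7 had 3.11 ± 0.477 CPM in the 6 infarct libraries and 7.80 ± 1.44 CPM in the 6 sham libraries (exact two-sided permutation p = 0.0022, the smallest that 6 against 6 allows). All 6 infarct libraries were below all 6 sham libraries, as for 0.694% of all genes. The edgeR log2 fold change was -1.32 ± 0.18 (95% interval -1.70 to -0.94, adjusted p = 0.021), the gene with rank 4 by p, where 0.284% of genes were called. The adjusted p was 0.00049 without Sham-E 1, 0.0040 without MI 2 and 0.030 without MI 3. Leaving out any of the other 9 libraries brought it to between 0.050 and 0.091, so that the call was lost.

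Between groups with and without EMPA, Slc9a7 differed by less than the spread between libraries. MI-E against MI gave a log2 fold change of -0.05 ± 0.25 (95% interval -0.60 to 0.49, adjusted p = 0.93). Sham-E against Sham gave -0.23 ± 0.24 (-0.75 to 0.29, adjusted p = 1.0), and -0.04 without Sham-E 1. The interaction, the first difference less the second, was 0.17 ± 0.35 (-0.58 to 0.93, adjusted p = 0.84), and -0.01 (adjusted p = 0.99) without Sham-E 1.

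**Figure D3:**
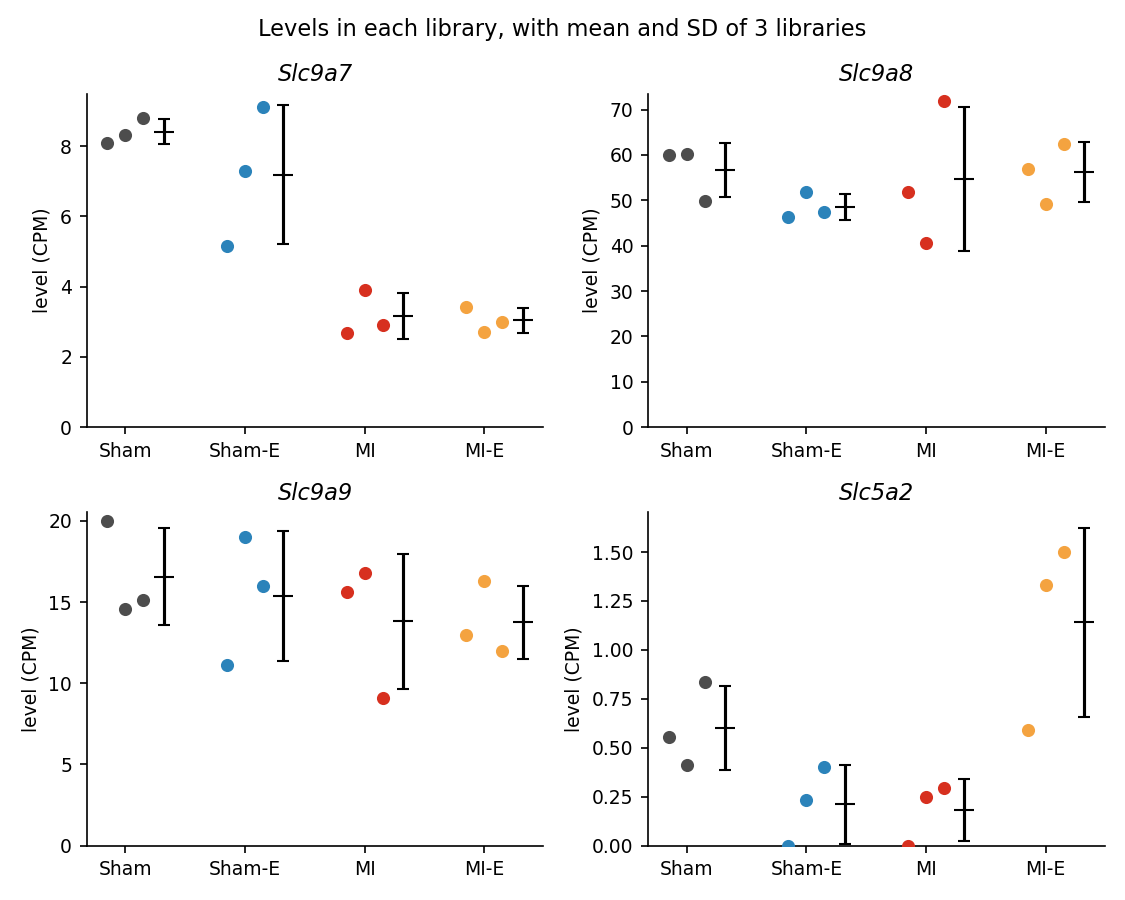
Points are the CPM of each library for the 4 members, with the mean (bar) and SD (whiskers) of 3 libraries beside them, all on axes from 0. Slc9a7 is at 5.15 CPM or more in every sham library and at 3.92 CPM or less in every infarct library, while the groups of Slc9a8 and Slc9a9 overlap.

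Markers of early B-lineage cells were lower along with Slc9a7 in MI against Sham. All 11 markers were measured, none was at 0 throughout, and their summed level lay between 903.6 and 1320 CPM for Sham, between 298.1 and 1026 for Sham-E, between 387.1 and 559.8 for MI, and between 505.2 and 597.6 for MI-E. In MI against Sham 11 of 11 had a negative log2 fold change, with a median of -1.47 and none called, where the median over all genes was 0.02. In Sham-E against Sham 11 of 11 were also negative, with a median of -0.70 beside -0.23 for Slc9a7. In MI-E against MI 7 of 11 were negative, with a median of -0.46 beside -0.05 for Slc9a7. None was called in either. Sham-E 1, the sham library lowest in Slc9a7 at 5.15 CPM, was also the lowest of all 12 in these markers. Its Slc9a7 was above every infarct library in CPM but not in TPM, where it had 3.23 and MI 2 had 3.28. Stroma and bone markers were also lower in MI (103.2 to 178.1 CPM) than in Sham (180.2 to 312.2 CPM). Of these, 7 of 8 were negative in MI against Sham, with a median of -1.22. Among them 1 was called lower, where 0.192% of all genes were. Their sum was not lower in MI-E (223.5 to 363.1 CPM), though 5 of 8 were negative in MI-E against Sham, with a median of -0.65. The part of these cells in the Slc9a7 result was not tested. In whole marrow, fewer cells of a type and less RNA per cell cannot be told apart.

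**Figure D4:**
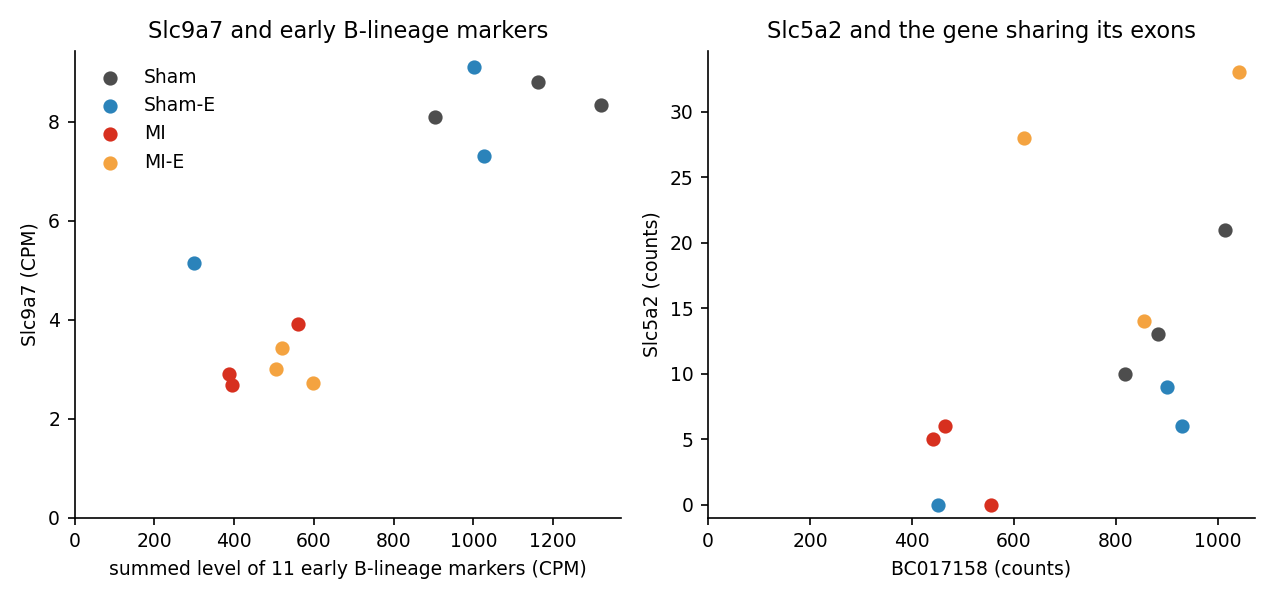
Left, each library's Slc9a7 level against the summed level of 11 early B-lineage markers, both in CPM. Right, each library's Slc5a2 count against the count of BC017158, whose exons overlap those of Slc5a2. On the left 5 sham libraries stand above 900 CPM of markers and 7 CPM of Slc9a7, with Sham-E 1 at 298.1 and 5.15. On the right the MI libraries are low on both axes, and so is Sham-E 1, with 450 BC017158 counts and 0 of Slc5a2.

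The genes most like Slc9a7 over the 12 libraries had lower means in both infarct groups than in both sham groups. By Pearson's r of log2 CPM they were Myb (0.954), a transcription factor of blood progenitors, Ifit2 (0.946) and Eif2ak2 (0.941), both interferon-induced, Pik3ap1 (0.946), an adaptor of B-cell receptor signalling, and Agbl5 (0.941), a tubulin-modifying enzyme. Myb, for example, averaged 293.7 CPM in Sham, 256.9 in Sham-E, 179.5 in MI and 162.5 in MI-E. These correlations were picked as the highest of many and share the same libraries and depth, so they carry no p. Of the 5, only Ifit2 passed the edgeR threshold in the averaged operation comparison (-0.73 ± 0.12, adjusted p = 0.039), where 0.284% of all genes did. None of the 5 passed in MI against Sham. Genes picked for a pattern like that of Slc9a7 share its difference by selection, so their lower means and this call are no separate support.

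Slc9a8 (ENSMUSG00000039463, chr2:167421712-167477000, plus strand, 13 transcripts) had similar levels in all 4 groups. Its libraries held 60, 60.2 and 49.9 CPM in Sham, 46.3, 51.8 and 47.4 in Sham-E, 51.8, 40.6 and 71.9 in MI, and 57.0, 49.2 and 62.5 in MI-E. MI had both the lowest and the highest library of the 12, and every group overlapped its neighbours in the order of means. The edgeR log2 fold change was -0.05 ± 0.18 in MI against Sham (95% interval -0.45 to 0.35, adjusted p = 0.90). It was 0.04 ± 0.18 in MI-E against MI (-0.36 to 0.44, adjusted p = 0.94) and -0.23 ± 0.18 in Sham-E against Sham (-0.62 to 0.17, adjusted p = 1.0), or -0.19 without Sham-E 1. Every bound of these intervals is closer to 0 than the fitted difference of Slc9a7 between MI and Sham.

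The ratio of count to TPM gives the mean transcript length that the authors' quantification assigned to a gene in a library. For Slc9a8 it was 3226 to 3492 bases in sham libraries and 3018 to 3269 bases in infarct libraries, with MI-E 2 (3269) and MI 2 (3258) above Sham 1 (3226). Means were 3401 ± 103.7 bases in the 6 sham libraries and 3132 ± 107.0 bases in the 6 infarct libraries (SD; exact two-sided permutation p = 0.0065, adjusted p = 0.156 over 24 such tests of 3 exchangers). It therefore did not pass the correction. The longest annotated coding transcript of Slc9a8 has 4521 bases, so each mean is a mixture. For Slc9a7 the mean was 1509 to 2134 bases over the 12 libraries, with infarct and sham ranges overlapping (exact permutation p = 0.29, adjusted p = 0.655).

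The genes most like Slc9a8 were Rccd1 (r = 0.936), Pcyt2 (0.917), an enzyme of phosphatidylethanolamine synthesis, Nars2 (0.907), the mitochondrial asparagine tRNA synthetase, Gramd1c (0.906) and Ddx47 (0.906), an RNA helicase. Ddx47 averaged 74.0, 69.1, 71.5 and 75.2 CPM in Sham, Sham-E, MI and MI-E.

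Slc9a9 (ENSMUSG00000031129, chr9:94669909-95230445, plus strand, 3 transcripts) spans the longest stretch of the 4 members, 560537 bases. Its libraries held 20, 14.6 and 15.1 CPM in Sham, 11.1, 19.0 and 16.0 in Sham-E, 15.6, 16.8 and 9.08 in MI, and 13.0, 16.3 and 12.0 in MI-E. All groups overlapped, and the lowest libraries were MI 3 and Sham-E 1. Means were 16.6 ± 2.98, 15.4 ± 3.99, 13.8 ± 4.15 and 13.8 ± 2.25 CPM (SD, n = 3 each). The edgeR log2 fold change was -0.26 ± 0.26 in MI against Sham (95% interval -0.82 to 0.29, adjusted p = 0.60), -0.01 ± 0.26 in MI-E against MI (adjusted p = 0.99) and -0.11 ± 0.26 in Sham-E against Sham (adjusted p = 1.0). The last was 0.08 (adjusted p = 1.0) without Sham-E 1, so its sign rests on that library. The recovered transcript length, 3382 to 3471 bases, lay close to the 3468 bases of the only coding transcript. Its most similar genes were Tmem170 (r = 0.915), AC163018.1 (0.910), AC110211.1 (0.905), Csf3r (0.891), the receptor of granulocyte colony-stimulating factor, and Cmtm3 (0.874).

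Slc5a2 (ENSMUSG00000030781, chr7:128265657-128272430, plus strand, 12 transcripts) is the member with too few counts. Its counts were 13, 10 and 21 in Sham, 0, 6 and 9 in Sham-E, 0, 5 and 6 in MI, and 14, 28 and 33 in MI-E. Group totals were 44 (exact Poisson 95% interval 32 to 59.1), 15 (8.40 to 24.7), 11 (5.49 to 19.7) and 75 (59.0 to 94.0), intervals that cover counting error only. It passed the filter because 5 libraries reached 0.437 CPM, the level that 10 counts give at the median depth. Those were 3 of MI-E and 2 of Sham and none of MI or Sham-E, so a gene that passed this way had to differ between groups. It failed the stricter filter of 1 CPM in 3 libraries.

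The question for Slc5a2 was whether it changed with EMPA, and no comparison passed the threshold. MI-E against MI gave a log2 fold change of 2.66 ± 0.94 (SE; 95% interval 0.62 to 4.69, edgeR adjusted p = 0.19), with means of 1.14 ± 0.483 and 0.181 ± 0.159 CPM (SD, n = 3 each) and no overlap, as for 21.7% of all genes. Of the 4 members 0 were called by edgeR there, against 0.00661% of all genes (1 gene), and 1 of the 4, Slc5a2, had an unadjusted p under 0.05, as did 17.4% of all genes. DESeq2 called none of the 4 members, against 577 of all genes (4.23%), and gave Slc5a2 no adjusted p. Sham-E against Sham went the other way, at -1.49 ± 0.92 (adjusted p = 1.0), with no overlap, as for 8.98% of all genes, and at -0.92 without Sham-E 1. In that comparison edgeR called 0 genes (0.0%), 287 (1.9%) had an unadjusted p under 0.05, and DESeq2 called 2 of all genes (0.0132%).

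The interaction for Slc5a2 was 4.15 ± 1.31 (95% interval 1.30 to 6.99, edgeR adjusted p = 0.27), and 3.58 (adjusted p = 0.35) without Sham-E 1, where 0.00661% of all genes were called. MI against Sham gave -1.74 ± 0.95 (adjusted p = 0.33), and MI-E against Sham-E gave 2.41 ± 0.91 (adjusted p = 0.30), or 1.84 (adjusted p = 0.29) without Sham-E 1. DESeq2 gave the interaction as 4.18 (adjusted p = 0.08). The intervals for MI-E against MI and for the interaction lie above 0, but neither result passed after adjustment over all genes. Slc5a2 entered the test only through libraries of MI-E and Sham, so the filter itself favoured these signs. The intervals, the unadjusted p for MI-E against MI, and the lack of overlap of Slc5a2 in any comparison are therefore no support for a change. On the scale of log2(TPM + 0.5) in limma, MI-E against MI was 1.15 (adjusted p = 0.18), since the added 0.5 exceeds most of its values.

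**Figure D5:**
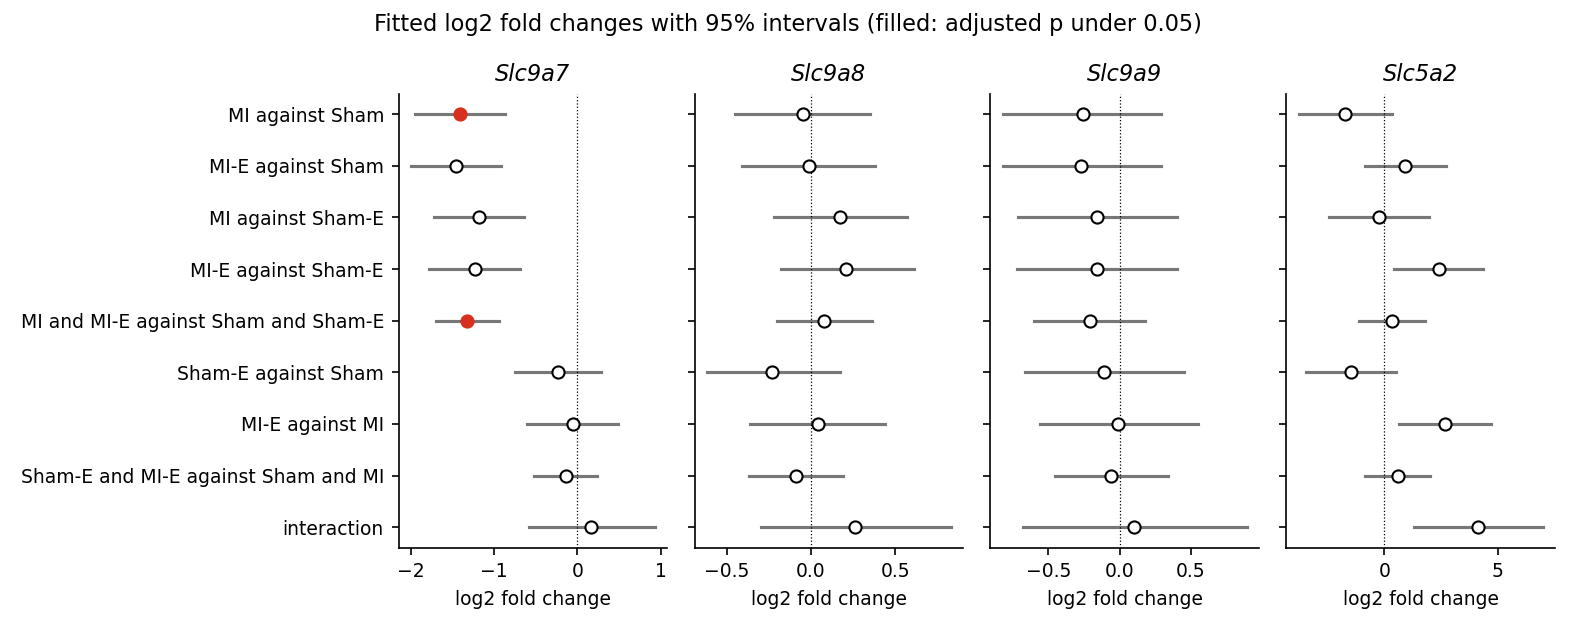
Points are edgeR log2 fold changes of the 4 members in 9 comparisons and lines their 95% intervals, with filled points where the adjusted p is under 0.05. Each panel has its own axis: Slc9a7 lies between -1.46 and -1.18 in the 5 comparisons of infarct with sham and between -0.23 and 0.17 in the other 4, whereas the intervals of Slc5a2 are several log2 units wide.

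Exons of Slc5a2 share 597 bases with BC017158, a gene on the opposite strand with 8967 counts over the 12 libraries. Whether the libraries keep strand is not given in the sources used here, so reads of the 2 genes in those bases cannot be told apart. BC017158 averaged 37.1 ± 3.32 CPM in Sham, 31.9 ± 10.9 in Sham-E, 22.7 ± 0.721 in MI and 37.7 ± 9.05 in MI-E (SD, n = 3 each). It was thus also lowest in MI, though not called against Sham (-0.71 ± 0.24, adjusted p = 0.13) or MI-E (0.73 ± 0.24 for MI-E against MI, adjusted p = 0.16). Slc5a2 counts were 0% to 4.52% of those of BC017158, and the 3 highest shares, 4.52%, 3.17% and 2.07%, were those of MI-E 3, MI-E 4 and Sham 4. The part of BC017158 in the Slc5a2 counts was not tested. The recovered mean transcript length of Slc5a2 ran from 1038 bases (MI-E 4) to 2168 bases (Sham 1), within the 329 to 2277 bases of its annotated transcripts, and is loose at such counts.

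Kidney tissue, where Slc5a2 is abundant, left little trace. Slc22a6, Kap and Slc12a1 were at 0 in every library, and Umod, Lrp2, Slc22a8, Cubn and Slc34a1 had 2, 6, 15, 16 and 71 counts over all 12. Aqp1, the ninth gene of that list, had 224780 counts and is also made by red blood cell precursors. Erythroid markers moved in the same direction as Slc5a2 in MI-E against MI, with 9 of 9 positive, a median log2 fold change of 0.41 and none called. The sum of these 9 ran from 13782 CPM up to 46725 CPM among MI libraries and from 23702 CPM up to 42526 CPM among MI-E libraries, which overlap. Other marker sums were higher in MI-E than in MI without overlap. Stroma and bone markers summed to 103.2 to 178.1 CPM in MI and 223.5 to 363.1 CPM in MI-E, with group means in the same order as those of Slc5a2. Megakaryocyte markers (76.9 to 152.4 against 184.9 to 222.9 CPM), eosinophil, basophil and mast cell markers (1541 to 2070 against 2231 to 3348 CPM) and mature B markers (927.1 to 1369 against 1404 to 1958 CPM) were also apart. In MI-E against MI, 6 of 8 stroma and bone markers, 6 of 6 megakaryocyte and 8 of 8 mature B markers were positive. Of 5 eosinophil, basophil and mast cell markers tested, however, 3 were negative, with a median log2 fold change of -0.35. The part of these cells in the Slc5a2 result was not tested. The genes most like Slc5a2 were Cdca4 (r = 0.948), Ube2s (0.902), Pdhx (0.890), Gins4 (0.888) and Rad51ap1 (0.877), and with counts this sparse the ranking is unstable.

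Of 14 sodium-glucose and related cotransporter genes, 5 were tested: Slc5a2, Slc5a3, Slc5a6, Slc5a11 and Pdzk1ip1. None was called by edgeR or DESeq2 in MI against Sham, where 0 had an unadjusted p under 0.05, 5 of 5 had a negative log2 fold change, and the median was -0.22. Slc5a1, which encodes SGLT1, had 1 count in Sham and none elsewhere. Pdzk1ip1 held 48.1, 55.9 and 61.9 CPM in Sham, 8.0, 36.4 and 74.5 in Sham-E, 27.6, 23.0 and 20.1 in MI, and 30.2, 48.7 and 61.9 in MI-E. MI was below Sham and MI-E without overlap, and Sham-E 1 was the lowest library. Of all genes, 27.3% had no overlap between MI and Sham and 21.7% had none between MI-E and MI. Its fitted log2 fold change was -1.23 ± 0.57 in MI against Sham (adjusted p = 0.27) and 0.99 ± 0.57 in MI-E against MI (adjusted p = 0.39). Slc5a3, a sodium-inositol cotransporter, had -0.22 ± 0.30 (adjusted p = 0.72) in MI against Sham.

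Of 23 sodium-proton exchangers and their regulators, 18 were tested, and Slc9a7 was the only one called in MI against Sham, with a list median of 0.06 beside 0.02 for all genes. For the 31 measured genes of the vacuolar proton pump, whose proton import the organelle exchangers oppose, 26 were tested and none was called by edgeR. In MI against Sham 24 of 26 were positive, with a median of 0.37, and 9 had an unadjusted p under 0.05, all higher, where 19.5% of all genes did. DESeq2 called 3 of the 26, where it called 6.73% of all genes. They were Atp6v1h, Atp6v0d1 and Atp6v0e, which edgeR gave 0.59 ± 0.12 (adjusted p = 0.055), 0.63 ± 0.16 (0.075) and 0.46 ± 0.13 (0.10). The subunit Atp6v1h held 51.6, 47.0 and 50.8 CPM in Sham, 70.4, 68.5 and 85.6 in MI, and 54.2, 59.3 and 52.8 in MI-E. All 3 MI libraries were above all libraries of the other groups. Taken pair by pair, MI did not overlap Sham for 27.3% of all genes, Sham-E for 12.2% and MI-E for 21.7%. In MI-E against MI 20 of 26 pump genes were negative, with a median of -0.16. Both comparisons use the MI libraries, whose inserts were the shortest. Monocyte, macrophage and dendritic markers moved with the pump genes, summing to 1298 to 1615 CPM in MI, 1013 to 1245 CPM in Sham and 1114 to 1199 CPM in MI-E. Osteoclast markers averaged 2235 CPM in MI, 1568 CPM in Sham and 2026 CPM in MI-E. Their sums in MI (1555 to 2636 CPM) overlapped those in Sham (1450 to 1665 CPM) and in MI-E (1816 to 2293 CPM). Of 3 osteoclast markers tested, 2 were positive in MI against Sham and 2 in MI-E against MI (medians 0.40 and 0.42). The second median is opposite in sign to that of the pump genes. The part of these cells in the pump result was not tested.

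Of 19 other organelle ion exchangers and pH regulators, all were tested and none was called by edgeR in MI against Sham. Their median was 0.09, 2 of 19 had an unadjusted p under 0.05 (19.5% of all genes did), and DESeq2 called 1 of 19 (6.73% of all genes). That was Ostm1, the partner of the lysosomal chloride-proton exchanger (edgeR 0.59 ± 0.13, adjusted p = 0.062). Tpcn2, a lysosomal cation channel, had 0.58 ± 0.21 (adjusted p = 0.16) there. Clcn5, an endosomal chloride-proton exchanger, had -0.45 ± 0.18 (adjusted p = 0.23) in MI-E against MI.

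Of 31 Golgi and endosome genes, all tested, edgeR called none in MI against Sham. The median was 0.09, 8 of 31 had an unadjusted p under 0.05 (19.5% of all genes did), and DESeq2 called 2 of 31, Lamp1 and Rab7 (6.73% of all genes). These shares are near those of all genes. Lamp1, a lysosomal membrane protein, had 0.59 ± 0.15 (edgeR adjusted p = 0.082). Igf2r, the mannose 6-phosphate receptor that cycles through the compartment where NHE7 sits, had -0.47 ± 0.18 (adjusted p = 0.19) in MI against Sham and -0.65 ± 0.13 (adjusted p = 0.062) over both treatments. Golga4, a tethering golgin of the trans-Golgi network, had -0.41 ± 0.10 (adjusted p = 0.076) in the latter.

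Of 29 plasma membrane sodium and acid-base genes, 22 were tested and edgeR called none in MI against Sham, with a median of -0.10 and 3 of 22 at an unadjusted p under 0.05, where 19.5% of all genes were. DESeq2 called none there. Car13, a cytosolic carbonic anhydrase, had -1.03 ± 0.41 (adjusted p = 0.19). Atp1b3, a subunit of the sodium pump, had -0.47 ± 0.17 (adjusted p = 0.19) in MI-E against MI.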

How the data were processed

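Whole bone marrow RNA was sequenced in 12 libraries, 3 for each of 4 groups. Tools listed in the submitters' processing notes are CASAVA 1.8, STAR 2.4.0j and RSEM, with build mm10. Expected counts for each gene were deposited by the authors as whole numbers, so no rounding was needed. The authors also deposited TPM, scaled by transcript length to a common total. Libraries are named by group and column number. These numbers are 1, 3 and 4 for Sham and 2, 3 and 4 for MI-E, while sample titles run from 1 to 3, so those columns were matched to their group only. Correlations of deviations from group means were -0.206 to 0.15 between same-numbered libraries and -0.217 to 0.263 between others.

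Genes passing filterByExpr of edgeR 4.0.16 (R 4.3.3), 15119 of them, were scaled by TMM and fitted with a mean per group to all 12 libraries (quasi-likelihood F-test, robust, 8 residual degrees of freedom). P-values were adjusted by Benjamini and Hochberg's method across all genes tested, with a threshold of 0.05. CPM uses the TMM-scaled library size. Intervals are 95% intervals. Transcript and insert lengths were recovered from count over TPM. For insert length, genes with 1 annotated transcript and at least 300 counts were used, with limits on TPM and length. Alternatives used limma 3.58.1, DESeq2 1.42.0, other scaling, filters, pseudocounts and omitted libraries. The code was tested on simulated data. Named genes are the 4 members, genes sharing their exons, from each list the members called (at most 6 in a direction) or otherwise up to 3 with the smallest p over 7 comparisons, and the 5 genes most correlated with each member whose mean log2 CPM reached 1, leaving out Gm, Rik, Mir, Snor, pseudogene and antigen receptor symbols. Slc5a1, Rab7 and the marker genes were named in addition, and some genes the rule picks are not reported here. The members and lists were chosen with earlier results of these data known. Depth was 21175087 to 24606783 counts per library.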

Additional observations from a re-analysis of the deposited data

How the results depend on the processing

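For Slc9a7 all 24 alternatives kept the sign in MI against Sham. The call was lost with limma on log2(TPM + 0.5) (-1.24, adjusted p = 0.051) and log2(TPM + 0.1) (-1.37, adjusted p = 0.056), and with the replicate block (-1.48, adjusted p = 0.13); leaving out 1 library gave -1.59 to -1.30. The TPM settings lower the median of all genes to between -0.15 and -0.11 in this comparison. MI-E against Sham-E was called with DESeq2 (-1.24), MI-E against Sham with DESeq2 (-1.47) and in a fit to the 2 groups (-1.46), and MI against Sham-E with DESeq2 (-1.18); with 1 library left out these ran from -1.43 to -1.03, from -1.57 to -1.39 and from -1.37 to -0.98. The averaged operation comparison was not called with the replicate block (-1.40, adjusted p = 0.053), and ran from -1.42 to -1.22 with 1 library left out. Slc5a2, Slc9a8 and Slc9a9 were called in no alternative. The same column number does not pair libraries beyond what other pairs show, so the block result is given for completeness.

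Counts of genes called over all genes moved more. In MI against Sham, 63 became 104 with total counts only, 156 with no filter, 1016 with DESeq2, 39 with limma-voom, 248, 242 and 276 on TPM with 0.5, 0.1 and 1 added, 309 in the fit to 2 groups, 1 with the replicate block and 1 to 1224 with 1 library left out (1224 without Sham-E 1, and every one of the 12 libraries moved it over 1.5 times). Of the 63, 54.0% were higher, against 22.1% with total counts only and 14.9%, 14.9% and 15.2% on TPM. In MI-E against MI, 1 became 2 with total counts, 33 with no filter, 577 with DESeq2, 38, 42 and 40 on TPM and 3 in 2 groups (1 to 988 with 1 library left out). In MI-E against Sham, 0 became 3 with no filter, 173 with DESeq2, 2 on TPM with 1 added and 2167 in 2 groups (0 to 250). In MI against Sham-E, 1 became 8 with no filter, 240 with DESeq2, 38, 38 and 34 on TPM, 0 in 2 groups and 0 with the block (1 to 495). In MI-E against Sham-E DESeq2 called 168 (0 to 117 with 1 library left out in edgeR) and in Sham-E against Sham 2 (0 to 0). The interaction went from 1 to 152 with DESeq2, 0 with limma-voom, 6, 12 and 7 on TPM and 0 with the block (1 to 150). The averaged operation comparison went from 43 to 88 with total counts, 113 with no filter, 1132 with DESeq2, 263, 242 and 298 on TPM and 0 with the block (0 to 1616), and the averaged EMPA comparison from 0 to 1 with no filter, 9 with DESeq2 and 2, 2 and 2 on TPM (0 to 11). With 1 library left out, the highest counts came without Sham-E 1 in MI against Sham or Sham-E, MI-E against Sham or Sham-E and the averaged operation comparison, and without MI 1 in MI-E against MI, the interaction and the averaged EMPA comparison. The cause of these moves was not tested. Slc5a2 rests on 145 counts in all. Unrounded counts were not run because the deposited counts are whole, and contrasts of all 4 groups have no fit to 2 groups.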
